A study of Drosophila melanogaster with 12 samples.

Results

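The comparison was that of 6 midgut libraries from dsxRNAi flies with 6 from control flies, with sex as a covariate, so that each gene received 1 change common to females and males. The submitters set out to learn how dsxRNAi affects female and male midguts. It covered every gene that passed an expression filter, which was 9686 of the 17558 genes in the count table, in all 12 libraries of the study. By their labels both genotypes carried y[1] v[1] over w[*] on the X chromosome. The dsxRNAi flies had dsxRNAi over mex1-Gal4 on the second chromosome and tub-Gal80ts over + on the third. The control flies had mex1-Gal4 over + on the second chromosome and UAS-GFP over tub-Gal80ts on the third. Females and males of each genotype gave 3 libraries apiece. All flies were virgins, kept at 18 °C for 6 days and at 29 °C for 4 days, and were 10 days old. The mex1-Gal4 driver acts in enterocytes, whereas the libraries were made from whole midguts. The labels give the same X chromosome genotype for both sexes. The genotypes differed in the RNAi hairpin, in UAS-GFP and in the second and the third chromosomes that stood opposite the driver and Gal80, and the controls carried no hairpin. An effect of dsxRNAi and a difference between the parental stocks therefore cannot be told apart here.

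The gene doublesex (dsx) encodes sex-specific transcription factors, made as a female and a male isoform by splicing, that direct somatic sexual differentiation in Drosophila. In the Gal4/UAS system a Gal4 driver switches on a UAS construct, here a hairpin that directs the degradation of dsx mRNA, and the temperature-sensitive Gal80 blocks Gal4 at the low temperature only. The midgut epithelium holds absorptive and enzyme-secreting enterocytes, hormone-secreting enteroendocrine cells and progenitor cells, and it is wrapped in visceral muscle and supplied by trachea and nerves.

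Each library held 36212113 to 45068874 counts, and a tested gene had a median of 638 counts in a library. Enterocyte markers had a summed level of 50600 to 70200 normalised CPM (counts scaled to the effective library size by TMM) in dsxRNAi libraries and of 38300 to 52700 CPM in control libraries, and none of their 17 tested members was called (3 had an unadjusted p under 0.05 in edgeR, and DESeq2 called 2). Visceral muscle markers summed to 4360 to 5700 CPM in dsxRNAi and 4500 to 5260 CPM in control libraries, and Malpighian tubule markers to 647 to 872 CPM in dsxRNAi and 635 to 965 CPM in control libraries. Neuron markers summed to 52.8 to 63.6 CPM in dsxRNAi and 93.8 to 148 CPM in control libraries, and fat body and hemocyte markers to 149 to 207 CPM in dsxRNAi and 205 to 295 CPM in control libraries. The male accessory gland markers summed to 13 to 19.2 CPM in dsxRNAi libraries and 12.7 to 240 CPM in control libraries, with the highest sum in control male 1. Of the sum of squares of log2 CPM over all tested genes, genotype took 24.2%, sex 26.7%, the combination of sex and genotype 9.8% and the spread within groups 39.2%. Genotype, sex and their combination have 1 degree of freedom each and the spread within groups 8, so these percentages are not directly comparable. Nothing in the labels says that the replicates came from separate pools of flies, so the p-values measure the spread between these libraries, which may be technical.

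The targeted gene did not pass the threshold in the common comparison. dsx (3R:7924323-7967408, build dm6) had 16.5, 22.3 and 19.9 CPM in dsxRNAi females, against 18.6, 20.3 and 21.3 CPM in control females, and 35.2, 43.1 and 41.2 CPM in dsxRNAi males, against 70.1, 59.1 and 53.2 CPM in control males. In females the values of the genotypes overlapped, and in males every dsxRNAi library was below every control library. The common change was -0.33 ± 0.12 (log2, SE, edgeR adjusted p = 0.0986), with an exact two-sided permutation p of 0.04 over 400 arrangements within the sexes. The change in males was -0.61 (edgeR adjusted p = 0.00643) and that in females -0.04 (edgeR adjusted p = 0.946), and the difference between them was not called (edgeR adjusted p = 0.172). The fitted change passed the threshold when dsxRNAi female 2 was left out, at -0.40 (edgeR adjusted p = 0.0356). The hairpin was driven in enterocytes, and the counts come from all cells of the midgut.

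The other genes named in the genotypes were examined next. y, which is needed for black pigment and whose y[1] allele is given for both genotypes, had 12, 17 and 8 counts in dsxRNAi females, against 5, 1 and 0 in control females, and 17, 11 and 10 counts in dsxRNAi males, against 0, 0 and 1 in control males. The ranges did not overlap, and the summed counts of 75 and 7 gave a 12-fold higher level in dsxRNAi (95% interval 5.54 to 30.8, for counting error only). The permutation p was 0.005, the smallest that this exact test can give, and the fitted change was 3.47 ± 0.62 (log2, SE, edgeR adjusted p = 0.00261). w, which encodes a pigment transporter, did not pass the test (log2 change -0.07, edgeR adjusted p = 0.716), nor did mex1, the enterocyte gene whose promoter drives Gal4 (log2 change 0.11, edgeR adjusted p = 0.495). The level of v, an enzyme of eye pigment synthesis, was too low for the filter, at 2 to 13 counts in dsxRNAi libraries and 1 to 9 in control libraries.

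**Figure D1:**
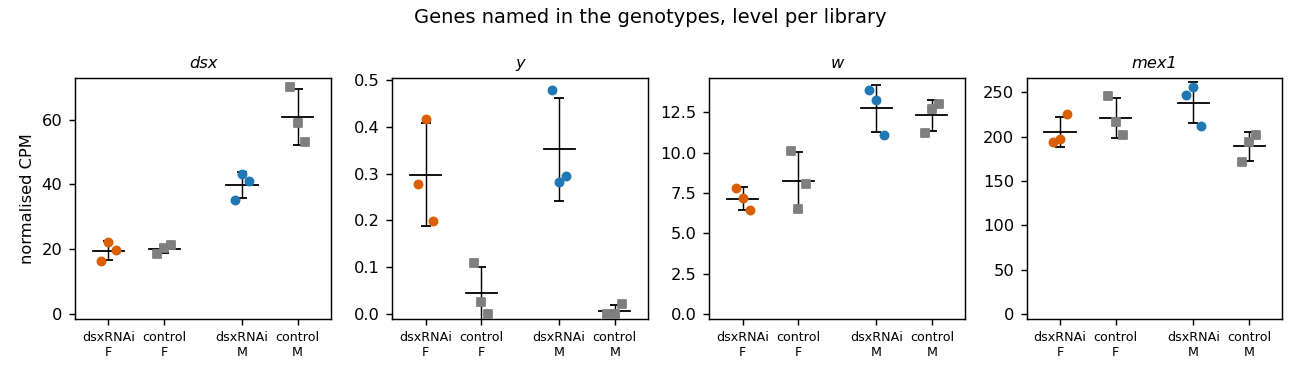
Level of dsx, y, w and mex1 in each library as normalised CPM, with dsxRNAi left of control in females (F) and then in males (M). Points are libraries, and bars give the mean and SD of 3 libraries. The dsx values of dsxRNAi and control females lie together near 20 CPM, while y is higher in all 6 dsxRNAi libraries.

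With sex as a covariate, 1102 of the 9686 tested genes (11.4%) were called, which means that the p of edgeR's quasi-likelihood test, adjusted after Benjamini and Hochberg over all tested genes, was under 0.05. Of these, 588 (6.07% of tested genes) were higher and 514 (5.31%) lower in dsxRNAi. The median size of the called changes was 0.52 on the log2 scale, and 295 genes changed at least 2-fold, 145 of them higher and 150 lower. Over all tested genes the fitted change had the same sign in both sexes for 61.1%. The common comparison favours such genes, and the sign was the same for 1099 of the 1102 called genes. The exceptions were the yolk protein genes Yp1 and Yp2 and the gene CG6026, which are named after their values were seen. In 424 genes the 6 dsxRNAi libraries did not overlap with the 6 control libraries, with 231 of them above (2.38% of tested genes) and 193 below (1.99%). Of the 424, 405 were called, and overlap and call rest on the same values.

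A stricter reading of a shared change asks that a gene be called separately in females and in males. Females had 335 called genes (3.46% of tested genes) and males 1418 (14.6%, with 8.05% higher and 6.59% lower). Both lists held 247 genes (2.55%) that moved the same way, 146 higher (1.51%) and 101 lower (1.04%), and 5 genes (0.0516%) that moved in opposite directions. The 247 genes made up 73.7% of the female list and 17.4% of the male list. Without dsxRNAi female 2 the lower genes numbered 63. The change was larger in females for 118 of the 247 genes, and the difference between the sexes was itself called for 4 of them, CG15170, CG4835, CG15544 and CG11741. Across all 9686 genes the female and male changes had a Pearson r of 0.242, and across the 7616 genes whose mean log2 CPM was 1 or more an r of 0.393. The 2 contrasts have no library in common, and genes are not independent replicates, so no p is attached.

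**Figure D2:**
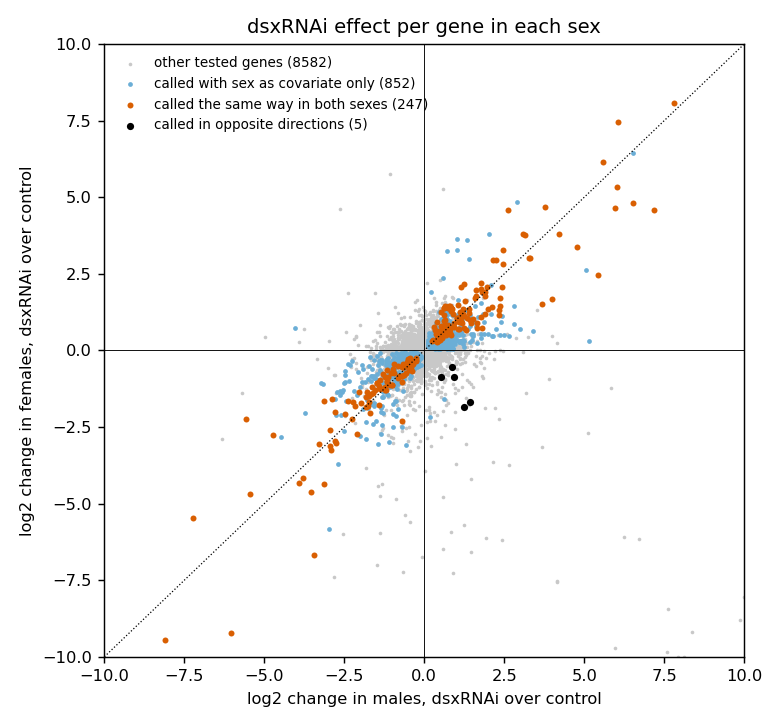
Log2 change of dsxRNAi over control in males (x axis) and in females (y axis), 1 point per tested gene, with values beyond 10 drawn at the edge. The 247 genes called the same way in both sexes lie along the dotted line of equal change, and the 5 genes called in opposite directions lie at the lower right.

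Separate fits of the 6 female and the 6 male libraries let the genes found in 1 sex be looked up in the other. The female fit called 2.37% of its genes, 1.39% as higher and 0.975% as lower, and the male fit 16.3%, 8.77% as higher and 7.52% as lower. Of 127 genes called higher in the female fit, 125 (98.4%) were also higher in males and 100 (78.7%) were called so, where 8.92% of all 9185 genes common to the fits were called higher in males. In the fit of all 12 libraries, 20 near-identical His2A copies were higher in both sexes, so the higher genes counted here may not all be independent. Of 90 genes called lower in the female fit, 80 (88.9%) were also lower in males and 57 (63.3%) were called so, against 7.54% of all genes. Their median change was 1.29 in females and 0.83 in males for the higher genes, and -1.08 in females and -0.94 in males for the lower ones. In the other direction, 633 of 819 genes called higher in males (77.3%) were higher in females and 100 (12.2%) were called so, against 1.38% of all genes. Of 693 genes called lower in males, 577 (83.3%) were lower in females and 57 (8.23%) were called so, against 0.98% of all genes.

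Among shared genes whose log2 CPM averaged 1 or more, the 12 largest increases were in genes for a mitochondrial carrier, a receptor, a chromatin factor and a protease, and in several genes known by number only. Below that level some genes changed more, such as Ilp3 (5.94), an insulin-like peptide gene. CG7227 (2L:7994388-7998151) had 14.8, 22.3 and 15.01 CPM in dsxRNAi females, against 1.74, 1.33 and 1.90 CPM in control females, and 20.6, 18.98 and 19.1 CPM in dsxRNAi males, against 0.51, 0.936 and 0.685 CPM in control males. Every dsxRNAi library was above every control library, with a common change of 4.02 ± 0.27 (log2, SE, edgeR adjusted p = 2.09e-06). CG14500 (2R:18188978-18189654) had 132, 130.2 and 122 CPM in dsxRNAi females, against 23.3, 15.9 and 15.2 CPM in control females, and 331, 396 and 262 CPM in dsxRNAi males, against 54.4, 46.6 and 80.4 CPM in control males. The lowest dsxRNAi female lay above the highest control male, and the common change was 2.63 ± 0.17 (log2, SE, edgeR adjusted p = 9.94e-07). CG32850 (4:314923-331387) had 123, 107 and 127 CPM in dsxRNAi females, against 33.1, 30.7 and 30.96 CPM in control females, and 136, 132 and 133 CPM in dsxRNAi males, against 36.7, 35.9 and 35.7 CPM in control males. Its values were close together within each group, and its change of 1.90 ± 0.052 (log2, SE, edgeR adjusted p = 1.13e-10) had nearly the same size in females (1.91) and males (1.89). Mpcp1, a mitochondrial phosphate carrier (2R:20279066-20281127), had 19.8, 18.6 and 16.58 CPM in dsxRNAi females, against 3.92, 5.32 and 4.47 CPM in control females, and 17.9, 15.8 and 20.1 CPM in dsxRNAi males, against 5.37, 5.52 and 4.77 CPM in control males, without overlap between the genotypes. Its change was 1.89 ± 0.095 (log2, SE, edgeR adjusted p = 3.88e-08). Acf, a subunit of the ACF chromatin remodelling complex, changed by 1.79 (edgeR adjusted p = 4.27e-07), mthl9, a methuselah-like receptor gene, by 2.24 (edgeR adjusted p = 1.27e-06), and the noncoding RNA CR44618 by 1.84 (edgeR adjusted p = 7.13e-07). The others of the 12 were CG43400, CG15544, CG8299, CG31955 and CG17739, with changes of 1.81 to 3.49. For CG15544 the change was larger in males (3.69) than in females (1.53), and the difference was called (edgeR adjusted p = 0.0464).

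With the same limit on level, the 12 largest shared decreases included detoxification enzymes, heat shock genes and a lectin. Below that level, Syt4 fell further (-8.66). CG32302 (3L:2268825-2269903) had 3.48, 0.565 and 4.17 CPM in dsxRNAi females, against 176, 66.97 and 119 CPM in control females, and 0.451, 0.077 and 0.325 CPM in dsxRNAi males, against 31.9, 36.4 and 59.4 CPM in control males. Its level differed several-fold among libraries of the same group, yet all 6 dsxRNAi libraries were below all 6 control libraries, with a change of -5.99 ± 0.56 (log2, SE, edgeR adjusted p = 0.000137). Cyp6w1, a cytochrome P450 gene (2R:6173684-6176195), had 1.07, 0.368 and 0.893 CPM in dsxRNAi females, against 13.6, 28.2 and 18.5 CPM in control females, and 0.564, 0.513 and 0.561 CPM in dsxRNAi males, against 22.5, 25.3 and 23.7 CPM in control males. Its highest dsxRNAi value was far below its lowest control value, and the change was -5.03 ± 0.26 (log2, SE, edgeR adjusted p = 2.62e-07). CG15169 (2L:18991020-18992409) had 1.32, 2.11 and 1.96 CPM in dsxRNAi females, against 12.3, 18.4 and 14.2 CPM in control females, and 3.19, 3.39 and 3.25 CPM in dsxRNAi males, against 31.4, 31.6 and 33.9 CPM in control males, and its change was -3.18 ± 0.12 (log2, SE, edgeR adjusted p = 3.78e-09). Cyp6a2, a P450 known for its link to insecticide resistance, changed by -2.38 (edgeR adjusted p = 0.00139), lectin-24A, a C-type lectin, by -2.40 (edgeR adjusted p = 0.00125), and Lip4, a lipase gene, by -1.68 (edgeR adjusted p = 0.00103). CG15528 and CG13397 changed by -2.26 and -2.01, and 4 copies of Hsp70 completed the 12. Each of the 24 genes of both directions kept its call when each library was left out in turn.

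**Figure D3:**
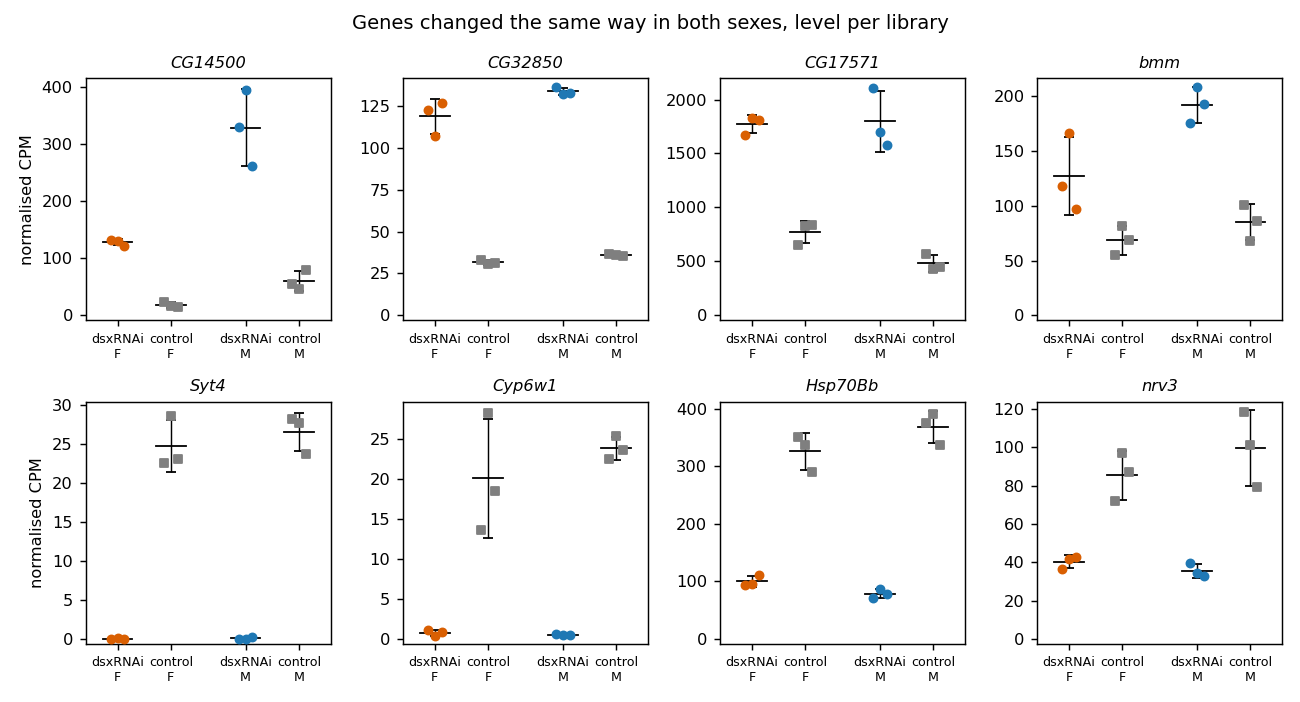
Level of 8 genes called the same way in both sexes, in normalised CPM per library, with dsxRNAi left of control in females (F) and then in males (M). Points are libraries, and bars give the mean and SD of 3 libraries. The upper genes (CG14500, CG32850, CG17571 and bmm) are higher and the lower genes (Syt4, Cyp6w1, Hsp70Bb and nrv3) lower in dsxRNAi in both sexes.

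Several genes had almost no reads in 1 of the genotypes. Syt4, a synaptotagmin that acts in regulated vesicle release (3R:7266065-7270809), had 1, 3 and 0 counts in dsxRNAi females, against 1040, 1142 and 998 in control females, and 1, 2 and 7 counts in dsxRNAi males, against 1217, 1183 and 1076 in control males. The summed counts of 14 and 6656 gave a level 425-fold lower in dsxRNAi (95% interval 253 to 777, for counting error only), and edgeR's adjusted p was 3.78e-09. CG17350 (2L:19380930-19383093) had 2 counts over all dsxRNAi libraries and 420 over all control libraries, a level 188-fold lower (95% interval 51.6 to 1550), and met the rule of at most 3 counts in every library of 1 genotype and at least 1 CPM in every library of the other. With at least 10 counts in place of 1 CPM, a limit chosen after the values were seen, 5 genes met the rule, and the other 4 were low in control. Ilp3, an insulin-like peptide (3L:9801298-9802120), had 58, 48 and 56 counts in dsxRNAi females, against 0, 2 and 0 in control females, and 20, 20 and 15 counts in dsxRNAi males, against 1, 0 and 0 in control males. Its sums of 217 and 3 counts gave an 81-fold higher level in dsxRNAi (95% interval 27.3 to 396, edgeR adjusted p = 4.55e-06). bsh, a homeobox transcription factor gene (2L:19765776-19769067), had 20 to 44 counts in each dsxRNAi library and 0 in every control library, which is at least 64.5-fold higher in dsxRNAi when 3 counts over the control group are taken as the floor. CG5282 had 143 counts over the dsxRNAi libraries and 1 over the control libraries, and prom, a prominin gene, had 103 and 2.

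Many digestive proteases were higher in dsxRNAi, and genes listed under starch and sugar digestion were called in both directions. Of 34 tested serine proteases, which break down dietary protein, 15 were called higher (6.07% of all tested genes were), 30 had a change above 0, and the median change was 0.49, against -0.00337 over all tested genes. The median was 0.26 in females and 0.57 in males, and the difference between the sexes was called for 2 of the 34. The list held 9 called members without control male 2 or without control male 3, and 23 without control female 2. CG17571 (2L:20255988-20257192) had 1674, 1833 and 1810 CPM in dsxRNAi females, against 651, 829 and 834 CPM in control females, and 2110, 1701 and 1578 CPM in dsxRNAi males, against 572, 430.5 and 445 CPM in control males. The groups did not overlap, and the change was 1.55 ± 0.14 (log2, SE, edgeR adjusted p = 1.44e-05). Jon66Ci, a Jonah protease, had 565, 766 and 472 CPM in dsxRNAi females, against 254, 370.5 and 292 CPM in control females, and 292, 356 and 291 CPM in dsxRNAi males, against 101, 106 and 139.6 CPM in control males. Within each sex the dsxRNAi values were higher, and the change was 1.21 ± 0.15 (log2, SE, edgeR adjusted p = 0.00022). iotaTry, a trypsin, and CG8299 were also called in both sexes, with changes of 0.49 (edgeR adjusted p = 0.000338) and 1.90 (edgeR adjusted p = 0.000567). The other 11 called proteases, with Jon25Bi (2.12) and Jon25Bii (1.77) at the top, were not called in both sexes. Of 6 tested lysozymes, enzymes that digest bacterial cell walls, LysB, LysD and LysE were called higher, and none was called without dsxRNAi female 2, dsxRNAi male 1 or 3, or control male 1, 2 or 3. Their genes are close copies, so reads could be split between them. The median change of the 6 lysozymes was 0.24 in females and 1.97 in males, and the difference between the sexes was called for 2. Of 25 genes listed under starch and sugar digestion, LManV, LManVI and Amy-d were called higher and LManI and Gba1a lower. The shares over all tested genes were 6.07% higher and 5.31% lower. The LMan genes encode lysosomal alpha-mannosidases, and of the called members only Amy-d, an amylase gene, acts on starch. In the list 13 of the 25 changes were above 0, with a median of 0.05. The median was -0.18 in females and 0.13 in males. The number called higher was 0 without dsxRNAi female 2 or control male 2 or 3, 1 without control female 1, any dsxRNAi male or control male 1, and 6 without control female 2. The number called lower was 6 without dsxRNAi male 2, and 2 only without dsxRNAi female 3, control female 2 or control male 2. It was 1 without each of the other 8 libraries.

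Lipid genes, which the title of the study concerns, were called higher more often than lower. Over all tested genes 6.07% were called higher and 5.31% lower. Of 30 tested genes of lipid digestion and transport, 7 were called higher and 1 lower, with a median change of 0.40, and 4 were higher without control male 2. The median was 0.13 in females and 0.52 in males. The difference between the sexes was called for 4 of the 30, against 0.805% of all tested genes. CG17191, a lipase gene, and GLaz, a lipocalin, were called higher in both sexes, and Lip4 lower in both. GLaz (2R:13163959-13168032) had 25.3, 25.97 and 23.99 CPM in dsxRNAi females, against 11.6, 18.3 and 16.59 CPM in control females, and 33.5, 27.7 and 33.9 CPM in dsxRNAi males, against 21.7, 21.7 and 16.8 CPM in control males. Within each sex the dsxRNAi libraries were above the controls, with a change of 0.68 ± 0.10 (log2, SE, edgeR adjusted p = 0.000952). Of 20 genes of lipolysis and fatty acid oxidation, 4 were called higher, 18 had a positive change, and the median was 0.18. It was 0.11 in females and 0.31 in males. Without control female 2 the higher genes numbered 10. bmm, the triglyceride lipase of lipid droplets (3L:14776496-14786412), had 118, 167 and 96.9 CPM in dsxRNAi females, against 55.4, 81.6 and 68.4 CPM in control females, and 176, 208 and 193 CPM in dsxRNAi males, against 101, 67.9 and 86.03 CPM in control males. In both sexes each dsxRNAi value was above each control value of that sex, and the change was 1.03 ± 0.15 (log2, SE, edgeR adjusted p = 0.000699). scu, CPT2 and yip2, which act in mitochondrial fatty acid breakdown, changed by 0.40, 0.30 and 0.29. Of 22 genes of lipid synthesis and storage, 3 were called higher and 1 lower, and 8 were higher without control female 2. The list had a median change of 0.20 in females and 0.11 in males. Lsd-1, a protein of the lipid droplet surface, had 39.1, 46.01 and 32.6 CPM in dsxRNAi females, against 12.01, 24.9 and 14.53 CPM in control females, and 39.2, 41.9 and 58.9 CPM in dsxRNAi males, against 17.5, 12.4 and 9.04 CPM in control males. Its change of 1.52 ± 0.24 (log2, SE, edgeR adjusted p = 0.00219) was called in males (1.85, edgeR adjusted p = 0.0049) and missed the threshold in females (1.20, edgeR adjusted p = 0.0808).

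Detoxification genes moved in both directions. Of 72 tested cytochrome P450 genes, 10 were called higher and 16 lower (background 6.07% and 5.31%), 4 of them higher and 8 lower in both sexes. Beside Cyp6w1 and Cyp6a2, the genes lower in both sexes were Cyp4ac2 (-1.33), Cyp12d1-d (-1.57), Cyp12d1-p (-1.27), Cyp6d4 (-0.49), Cyp6a23 (-0.44) and the scarcely expressed Cyp310a1 (-4.03). Cyp6a20 (2R:14882118-14884046) had 68.8, 66.2 and 70.2 CPM in dsxRNAi females, against 22, 27.6 and 24.2 CPM in control females, and 76.6, 74.2 and 68.1 CPM in dsxRNAi males, against 36.3, 35.03 and 35.03 CPM in control males. The groups did not overlap, and the change was 1.26 ± 0.083 (log2, SE, edgeR adjusted p = 5.35e-07). The others higher in both sexes were Cyp6a17 (0.78), Cyp9f3 (0.50) and shd (1.71), the enzyme that converts ecdysone to its active form. Of 44 tested glutathione transferases and other conjugating enzymes, 3 were called higher and 8 lower. GstD5 (3R:12375733-12376572) had 3.62, 5.23 and 3.55 CPM in dsxRNAi females, against 12.8, 11.8 and 10.6 CPM in control females, and 7.61, 15.6 and 7.001 CPM in dsxRNAi males, against 30.9, 36.3 and 33.3 CPM in control males. All dsxRNAi libraries of a sex were below its controls, and the change was -1.62 ± 0.19 (log2, SE, edgeR adjusted p = 0.000193). GstD2, GstD3, GstD4 and GstD8, which are neighbours of GstD5 in a gene cluster, were called lower as well, at -1.82, -1.40, -0.95 and -1.04. GstE11 (0.74) and GstO3 (0.46) were called higher in both sexes.

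The 4 called heat shock genes, of 19 tested, were all Hsp70B copies, and all were lower in both sexes. Over all tested genes 5.31% were called lower, and 1.04% were called lower in both sexes. Hsp70 is a chaperone strongly induced by heat, and all flies were held at 29 °C. Hsp70Bb (3R:12505793-12508139) had 93.95, 95.5 and 111 CPM in dsxRNAi females, against 350, 338 and 289 CPM in control females, and 71.2, 86.2 and 78.6 CPM in dsxRNAi males, against 375, 391 and 338 CPM in control males. The 2 ranges were far apart in each sex, and the change was -1.96 ± 0.11 (log2, SE, edgeR adjusted p = 8.86e-08). Hsp70Ba, Hsp70Bc and Hsp70Bbb changed by -1.85, -1.82 and -1.78, and leaving out each library kept the count at 4. The copies are near-identical, so the counts of single copies are uncertain and the 4 calls are not independent. The median change over the 19 genes was -0.43, and the summed level of the list was 4720 to 6580 CPM in dsxRNAi and 5220 to 6030 CPM in control libraries.

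Genes of the respiratory chain had a small positive median change. Of 66 tested subunits of the respiratory chain and the ATP synthase, 10 were called higher, where 6.07% of all tested genes were. None of the 66 was called in both sexes. All 66 had a change above 0, with a median of 0.19, against -0.00337 over all tested genes. The median was 0.05 in females and 0.34 in males. The count of called members was 2 without dsxRNAi female 2, dsxRNAi male 1 or 2, or any of the 3 control males, 3 without control female 1 or dsxRNAi male 3, 17 without dsxRNAi female 3 and 40 without control female 2. ND-13B, a complex I subunit, had 50.7, 51.9 and 48.5 CPM in dsxRNAi females, against 38.6, 47.6 and 39.3 CPM in control females, and 58.5, 61.7 and 54.5 CPM in dsxRNAi males, against 37.7, 37.7 and 35.6 CPM in control males. In each sex the dsxRNAi libraries were above the controls, and the change was the largest of the list, 0.46 ± 0.078 (log2, SE, edgeR adjusted p = 0.00186). No member was called among 78 cytoplasmic ribosomal proteins in edgeR (5 had an unadjusted p under 0.05, and DESeq2 called 0), and their median change was -0.11 in females and 0.29 in males. No member was called among 26 genes of the Myc network and ribosome biogenesis in edgeR either (2 had an unadjusted p under 0.05, and DESeq2 called 1), with medians of -0.14 in females and 0.33 in males. Of 17 tested genes of sex determination and dosage compensation none was called in edgeR (2 had an unadjusted p under 0.05, and DESeq2 called 0). Among 8 tested genes described as targets of dsx, the yolk protein genes Yp1 (-1.51), Yp2 (-1.86) and Yp3 (-2.02) were called lower, where 5.31% of all tested genes were. These yolk protein genes are also fat body markers. They were called in the comparison over both sexes, and in males each had under 1 CPM in every library. The changes of Yp1 and Yp2 had opposite signs in the sexes. The list had a median change of -0.02 in females and 0.03 in males, and 3 of its 8 common changes were above 0. DESeq2 called 1 gene of this list lower, and edgeR called 0 without dsxRNAi female 2 or 3 and 1 without control female 1, dsxRNAi male 1 or control male 1 or 3. Hex-C, a hexokinase, was called higher at 0.83 (edgeR adjusted p = 0.0015), aurB, a mitotic kinase, at 1.04 (edgeR adjusted p = 0.00225), and Mvl, a metal transporter, at 0.69 (edgeR adjusted p = 0.0148). Hex-C was 1 of 3 genes called of 22 in glycolysis and sugar sensing. aurB was the only one called of 26 cell cycle and DNA replication genes, whose median change was -0.15. Mvl was the only one called of 26 metal handling genes. aurB was called in both sexes, and Hex-C and Mvl in males only.

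Among markers of cell types other than enterocytes, most of the called members were lower in dsxRNAi. Over all tested genes 5.31% were called lower and 6.07% higher, and in the progenitor, visceral muscle and tracheal lists no more than 1 gene was called in either direction. In whole midguts, fewer cells of a type and less RNA per cell cannot be told apart. Of 19 tested enteroendocrine genes, 4 were called lower and 1 higher, and 9 were lower without control female 1. Beside Syt4 these were the gut hormones AstA and CCHa1 and the prohormone-processing enzyme svr as lower genes and Cadps as the higher one. No member of the list was called higher without dsxRNAi female 1, dsxRNAi male 2 or control male 2 or 3. AstA (3R:24760530-24765071) had 23.5, 25.4 and 25.3 CPM in dsxRNAi females, against 29.7, 31.4 and 30.4 CPM in control females, and 29.6, 28.9 and 33.03 CPM in dsxRNAi males, against 45.1, 45.6 and 54.3 CPM in control males. Each dsxRNAi library was below each control library of its sex, with a change of -0.48 ± 0.074 (log2, SE, edgeR adjusted p = 0.00091). Of 14 tested fat body and hemocyte markers, 7 were called lower, none of them in both sexes, with a median change of -0.88. The called members were Yp1, Yp2 and Yp3, the GATA factor srp, the prophenoloxidase PPO2, the hemocyte gene Hml and the collagen Col4a1. The count of called markers was 2 without dsxRNAi female 3 or without dsxRNAi male 1, and 3 or 4 without dsxRNAi female 1 or 2, control female 3, dsxRNAi male 2 or 3, or control male 2 or 3. Of 6 neuron markers, nrv3, a subunit of the sodium pump (2L:21380000-21393319), was called lower, with 36.7, 41.8 and 42.5 CPM in dsxRNAi females, against 71.8, 97.1 and 86.8 CPM in control females, and 39.7, 34.2 and 32.8 CPM in dsxRNAi males, against 118, 101 and 79.2 CPM in control males. The groups did not overlap, the change was -1.28 ± 0.12 (log2, SE, edgeR adjusted p = 1.5e-05), and the gene held most of the summed level of the neuron list. Of 13 progenitor markers hdc was called lower (-0.30, edgeR adjusted p = 0.0352), and the call was lost when any library other than dsxRNAi female 3 or control female 2 was left out. Of 12 Malpighian tubule markers NtR (-1.45) and Irk2 (-0.41) were called lower, and 1 of the list without control female 3. Of 17 visceral muscle markers sls (-0.39) was called lower and Mlc2 (0.21) higher. With 1 library left out, a member was called higher only when that library was dsxRNAi female 2 or control female 2. Among 7 tracheal markers uif, a membrane protein of the airway lining, was called higher in both sexes (1.27), and antr, 1 of 2 tested accessory gland markers, lower in both (-1.24). The part of other tissues in these results was not tested.

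**Figure D4:**
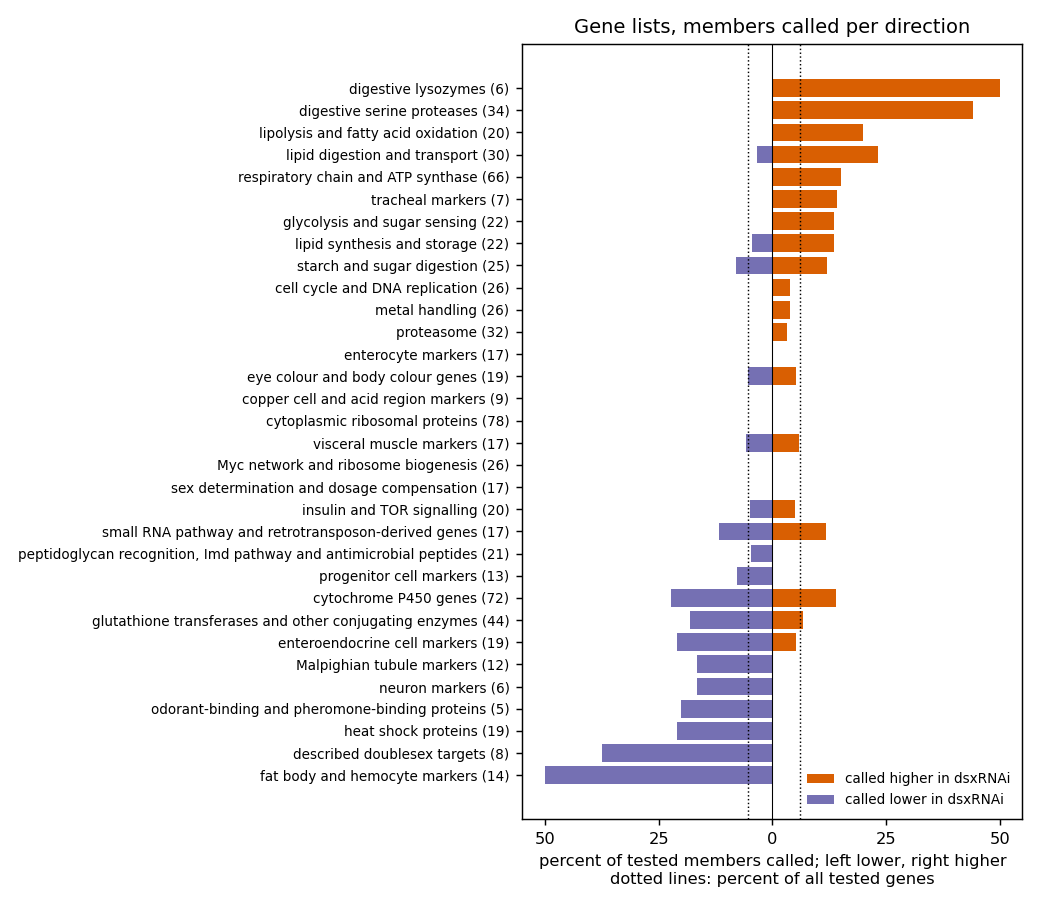
Percent of the tested members of each gene list called higher (right) and lower (left) in dsxRNAi with sex as a covariate, for lists with at least 5 tested members, whose number stands in parentheses. Dotted lines mark the 6.07% and 5.31% of all tested genes called higher and lower. Digestive proteases and lysozymes lie far to the right, and fat body and hemocyte markers far to the left.

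Small RNA pathway genes, which silence transposons in the germ line, gave 2 higher and 2 lower members of 17, where 6.07% and 5.31% of all tested genes were called higher and lower. With 1 library left out, the higher members stayed at 2 only when that library was dsxRNAi female 1, dsxRNAi male 1 or 2, or control male 2, and were otherwise 1. The lower members numbered 3 without dsxRNAi male 3. tej had 2.18, 1.498 and 1.81 CPM in dsxRNAi females, against 0.566, 0.351 and 0.394 CPM in control females, and 1.04, 0.744 and 1.09 CPM in dsxRNAi males, against 0.371, 0.421 and 0.486 CPM in control males. It was called higher in both sexes, with a change of 1.62 ± 0.23 (log2, SE, edgeR adjusted p = 0.000492). spn-E, an RNA helicase of the same pathway, was lower at -1.73 (edgeR adjusted p = 0.00726), del was lower at -0.62 (edgeR adjusted p = 0.011) and AGO3 was higher at 0.48 (edgeR adjusted p = 0.0466).

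The shared genes were spread unevenly over the chromosomes. On the X chromosome 6 of 1590 tested genes (0.377%) were called the same way in both sexes, against 218 of 7807 (2.79%) on the autosome arms when the histone cluster described next is left out. The percentages by arm were 3.58 for 2L, 2.56 for 2R, 2.42 for 3L, 2.72 for 3R and 2.44 for chromosome 4. In males 10.8% of X genes and 12.2 to 18.3% of the genes of the other arms were called. Of the male calls 3.51% were shared with females on the X and 16.7 to 20% on the other arms. In females 0.692% of X genes and 2.44 to 4.42% of the genes of the other arms were called. The 6 shared X genes were Top1, the type I DNA topoisomerase (-0.38), Scgdelta, a sarcoglycan (-0.59), CR40469, a noncoding RNA (-0.34), spri, a Ras effector (-0.46), alpha-Man-Ia, a Golgi mannosidase (-0.62), and Eo, ecdysone oxidase (1.71). Eo had 8.34, 9.18 and 6.62 CPM in dsxRNAi females, against 2.87, 4.57 and 3.48 CPM in control females, and 5.86, 4.62 and 7.86 CPM in dsxRNAi males, against 0.834, 1.59 and 1.17 CPM in control males. All dsxRNAi libraries were above the controls, and Eo was the only X gene of the 6 that was higher. By the labels the hairpin lay on the second chromosome and UAS-GFP on the third, and the X genotype was the same in both groups.

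**Figure D5:**
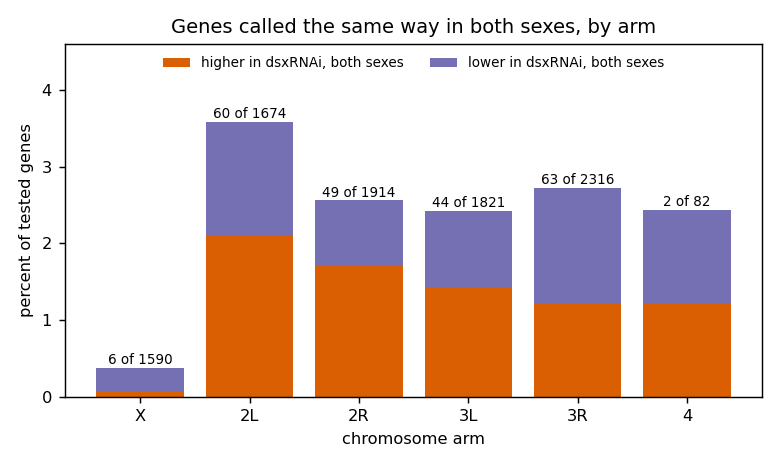
Percent of the tested genes of each chromosome arm called the same way in both sexes, split into those higher and lower in dsxRNAi, without the histone cluster. The number of genes stands above each bar. The X has 6 such genes of 1590, and the other arms lie between 2.42% and 3.58%.

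Shared genes were also unevenly placed within arms. In 123 windows of 1 Mb a median of 1.9% of tested genes was shared, and the highest value, 17.2%, was that of the window from 21 to 22 Mb of 2L with 23 of 134 genes. That window holds the histone gene cluster (2L:21416953-21543688, 83 tested genes). All 20 tested copies of His2A were called higher in both sexes, with changes of 1.00 to 1.12. The median His2A copy had 8.63, 9.62 and 6.85 CPM in dsxRNAi females, against 3.24, 3.39 and 2.92 CPM in control females, and 5.95, 7.94 and 7.33 CPM in dsxRNAi males, against 3.34, 4.50 and 4.66 CPM in control males. The groups did not overlap. No copy was called among 23 His1 and 23 His2B genes in edgeR (0 and 11 had an unadjusted p under 0.05), and 1 of 12 His4 copies was called lower (11 had an unadjusted p under 0.05). Of 5 tested His-Psi genes of the cluster, 3 were called higher, 1 of them in both sexes. The copies of a type are near-identical and their levels moved together (r of at least 0.979 between His2A copies), so the 20 calls are not independent. The labels' protocols give poly-A selection, and most mRNAs of this cluster lack a poly-A tail. Without the cluster, 565 genes were called higher and 513 lower with sex as a covariate, and 125 were higher and 101 lower in both sexes.

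Many shared genes lay close to another shared gene. Of 224 placed shared genes outside the cluster, 57 (25.4%) had another within 10 kb, and 44 of these 57 had a neighbour that moved the same way. Of all 9397 placed tested genes, 854 (9.09%) had a shared gene so close, and for 518 of these 854 it moved the same way. Syt4 and Gld, a glucose dehydrogenase gene, are such a pair on 3R. Gld (3R:7252063-7265703) had 0.0464, 0 and 0 CPM in dsxRNAi females, against 0.435, 0.326 and 0.417 CPM in control females, and 0.0564, 0.154 and 0.148 CPM in dsxRNAi males, against 1.14, 0.959 and 1.10 CPM in control males. It was lower in dsxRNAi in both sexes, with a change of -3.48 (edgeR adjusted p = 0.000108). A run of 5 genes on 3R, eca, CG18542, Unc-115b, CG32939 and Unc-115a (3R:9684469-9705417), was higher in both sexes by 0.36 to 0.51. The P450 genes Cyp6a17, Cyp6a23 and Cyp6a20 lie within 10 kb of each other on 2R, with changes of 0.78, -0.44 and 1.26. CG7231 and CG7227 on 2L were both higher (1.06 and 4.02), as were Peritrophin-15b and Peritrophin-15a (1.20 and 0.99), proteins of the membrane that lines the gut. Neighbours also moved in opposite directions: CG15170 (1.27) and CG15169 (-3.18), and CG31955 (1.85) and lectin-24A (-2.40). Some of these genes overlap, and the strand setting of the counting is not given in the sources used here, so their reads may not be separate. These pairs were chosen after their values were seen.

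In 5 genes the genotypes differed in opposite directions in the sexes. CG7912 averaged 22.6 ± 3.14 CPM in dsxRNAi females and 41.5 ± 5.31 CPM in control females, and 23.4 ± 2.32 CPM in dsxRNAi males and 16.1 ± 1.66 CPM in control males (SD, n = 3 each). In neither sex did the genotypes overlap. The gene changed by -0.88 in females and 0.54 in males, and the difference between the sexes was called (edgeR adjusted p = 0.00308). Zip42C.2, a zinc transporter gene, changed by -1.68 in females and 1.44 in males (edgeR adjusted p of the difference = 0.00311). mt:ND2, a complex I subunit of the mitochondrial genome, changed by -0.54 in females and 0.88 in males (edgeR adjusted p of the difference = 0.00311). The noncoding RNA CR44145 changed by -0.86 in females and 0.94 in males, and mt:tRNA:Trp-TCA, named after its value was seen, by -1.83 and 1.25. Over all 9686 tested genes the difference between the sexes was called for 78 (0.805%), and 38 of these were among the 1102 genes of the common comparison.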

How the data were processed

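RNA was sequenced from 12 midgut samples of 4 groups, as poly-A-selected, strand-specific libraries made from 200 ng of RNA and read as pairs of 100 bp, per the labels' protocols. The deposited table holds raw counts per gene. Reads were aligned with TopHat2 2.0.11 to dm6 and featureCounts made the counts, as the submitters' processing notes list them. How strands were treated, and which annotation release was used, is not given in the sources used here. Gene positions came from an Ensembl annotation on dm6 coordinates.

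Counts were analysed in R 4.3.3 with edgeR 4.0.16 (filterByExpr with a minimum count of 10, TMM scaling, robust quasi-likelihood fit of sex and genotype, prior count 0.125). The changes in each sex and their difference came from a fit of 4 group means to all 12 libraries. The threshold was 0.05 for p-values adjusted after Benjamini and Hochberg over all tested genes. Levels are TMM-scaled CPM. For single genes an exact permutation test, two-sided, was run on log2(CPM + 0.05) within the sexes, whose smallest p is 0.005. Count intervals are 95% exact intervals and cover counting error only. The test was tested on simulated data.

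The comparison, the 36 gene lists and the rules were chosen with earlier results of these data known. Genes were named by a rule: the genes in the genotypes; the 12 largest changes a direction among genes called in both sexes whose mean log2 CPM was 1 or more, with no overlap within either sex; up to 3 called members of each list; genes near 0 in 1 genotype; and up to 4 genes called in opposite directions. Further called members of the lists are given as values. Alternatives were relative log expression scaling, TMM without the 100 most abundant genes, DESeq2 1.42.0, other filters, no robust estimation, an average contrast, a replicate block, stricter thresholds and leaving out each library. Figures were drawn with matplotlib 3.10.9.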

Additional observations from a re-analysis of the deposited data

Results flagged for a closer look

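For 7 named genes the dsxRNAi effect differed between females and males by the test of that difference in edgeR, given here as the female minus the male log2 change. It was -2.16 for CG15544 (adjusted p = 0.0464), which was higher in dsxRNAi in both sexes. It was -1.68 for LysB (adjusted p = 0.0392) and -1.98 for LysE (adjusted p = 0.0358), both higher in dsxRNAi males with smaller, uncalled changes in females. It was -1.41 for CG7912 (adjusted p = 0.00308), -3.11 for Zip42C.2 (adjusted p = 0.00311), -1.42 for mt:ND2 (adjusted p = 0.00311) and -1.80 for the noncoding RNA CR44145 (adjusted p = 0.012), all lower in dsxRNAi females and higher in dsxRNAi males.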

How the results depend on the processing

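The counts of called genes depended mainly on the threshold. At an adjusted p under 0.01, 277 genes were higher and 230 lower with sex as a covariate, and 76 and 45 in both sexes. With a log2 change of at least 1 the counts were 145 and 150, and 57 and 52 in both sexes. DESeq2 gave 171 genes lower in both sexes, against 101 in edgeR. Without each library in turn the counts ran from 404 to 794 higher and 355 to 580 lower with sex as a covariate, and from 99 to 151 higher and 63 to 112 lower in both sexes. The change of dsx passed the threshold as the average of the female and male effect (-0.32), and ran from -0.40 to -0.25 without each library. Of the genes called higher in the female fit, 53.6% were called in males at an adjusted p under 0.01. On 2L, 4.61% of tested genes were shared with the histone cluster and 3.58% without it. The rule for genes near 0 gave 5 genes with the lower limit and 1 as first set. Over 18 same-numbered pairs of libraries the correlations ran from -0.30 to 0.21 (median 0.03, 6 over 0.1). Over 36 pairs of other numbers they ran from -0.26 to 0.33 (median -0.03, 8 over 0.1). The 2 ranges overlap, and such values cannot show that the replicate numbers do not pair the libraries. The replicate block gave 566 higher and 491 lower genes, and 148 and 94 in both sexes. The scaling and filter settings kept every count within 1.5 times. Over 88 named genes and 1753 values under other settings, none changed sign where either fit called the gene. Of these values, 125 lost their call and 2 gained one. The uncalled w did change sign, with a range of -0.12 to 0.02 without each library. Of 81 called named genes, 64 kept the call without each library in turn. The cause of these shifts was not tested. At these depths 971 tested genes had a median count under 20, so their small changes could not be seen.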
